A study of Mus musculus with 14 samples.

Results

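Complex I (NADH:ubiquinone oxidoreductase) is the entry point for most electrons of the mitochondrial respiratory chain. A core of catalytic proteins takes electrons from NADH along a chain of iron-sulfur clusters to ubiquinone and couples this to proton pumping, and a larger set of accessory subunits surrounds, stabilizes and helps assemble the core. The core proteins of the matrix arm and every accessory subunit are encoded in the nucleus, whereas the proton-pumping core of the membrane arm is encoded in mitochondrial DNA. The mRNAs of the nuclear subunits were examined here one by one in mouse lung adenocarcinomas with and without a guide against Setd2, the histone methyltransferase that trimethylates lysine 36 of histone H3.

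The genes were the protein-coding entries of the count table whose symbol is Ndufa, Ndufb, Ndufc, Ndufs or Ndufv followed by a digit, plus Ndufab1, without the Ndufaf assembly factors. The rule found 38 of the 52550 genes in the table and used no measured value. It takes in Ndufa4, whose protein is now assigned to complex IV, and its paralog Ndufa4l2. These are described apart from the complex I subunits, but counts and medians over the 37 genes tested include Ndufa4. All tumors arose in KPY mice, which carry Rosa26 LSL-YFP/LSL-YFP and Trp53 flox/flox on a mixed B6J/129S4vJae background, after endotracheal delivery of a lentivirus that carries Cre, Cas9 and a guide RNA. The 6 KPY-Ctrl tumors received a guide against β-galactosidase and the 8 KPY-Setd2KO tumors a guide against Setd2. According to the study's methods, tumors were dissected and digested and the live YFP-positive cells were sorted. The sample labels name lung adenocarcinoma but describe RNA from cell lines and other kits, and this conflict was not resolved. The labels do not give the age of the mice or the mouse of each tumor, and some tumors came from the same mouse, so p-values treat as independent some tumors that may not be.

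KPY-Ctrl libraries held 27866266 to 51828846 counts and KPY-Setd2KO libraries 20072236 to 40604404. Setd2 itself ranged from 41.9 to 63.6 CPM in KPY-Ctrl (counts per 1000000, scaled by the TMM method) and from 17.9 to 47.4 CPM in KPY-Setd2KO, so the genotypes overlapped (log2 fold change -0.74, standard error 0.22, adjusted p = 0.175 in edgeR's quasi-likelihood test). The 11 epithelial and 9 alveolar type 2 markers were all above the filter on low counts. Leukocyte markers were high in some sorted samples of both genotypes: the mean log2 CPM of 12 such genes, called the leukocyte score here, was 3.89 to 9.15 in KPY-Ctrl tumors and 3.68 to 9.29 in KPY-Setd2KO tumors. Of the 12, 10 had a log2 fold change over 0, against 52.7% of all genes tested, and no marker of the list was at 0 in any tumor. None was called, but the test called 0% of all genes, so this does not show equal leukocyte content. KPY-Ctrl replicates 1, 2 and 6 and KPY-Setd2KO replicates 1 to 4 were the tumors with scores of 8.56 or more, and the other tumors were at 5.84 or less. Some lists of markers of other cell types had median log2 fold changes away from 0, although no marker, and no other gene, was called in edgeR. The median log2 fold change was 1.04 for 8 endothelial markers (7 over 0) and 1.11 for the 4 erythroid markers tested of 5 (4 over 0). Both lists were low, with a mean log2 CPM of -1.19 to 1.61 in KPY-Ctrl tumors and -0.042 to 2.47 in KPY-Setd2KO tumors for the endothelial markers, and of 0.93 to 2.66 and 0.82 to 4.28 for the erythroid markers. The median was -0.56 for the alveolar type 2 markers (3 of 9 over 0), 0.021 for the epithelial markers (6 of 11), 0.40 for 12 macrophage markers (10 over 0), -0.27 for fibroblast markers (2 of 6) and 0.66 for markers of T cells, B cells and neutrophils (4 of 5). The part of these other lists in the results on the subunits was not tested.

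Most complex I subunits had a log2 fold change over 0 in KPY-Setd2KO tumors, but no single subunit passed the test. Of the 38 genes, 37 passed the filter on low counts. A log2 fold change over 0 was found for 29 of the 37 (78.4%), against 52.7% of all 16836 genes tested. The 37 genes share library and scaling in each tumor, so this share does not rest on independent genes. The median log2 fold change of the 37 was 0.23, beside 0.030 for all genes, and the values ran from -0.35 for Ndufb2 to 0.62 for Ndufs6. For scale, the median log2 CPM of the 37 had an SD of 0.31 between tumors within genotype. None of the 37 was called at an adjusted p of 0.05 by edgeR's quasi-likelihood test, in which 0% of all genes were called, nor in DESeq2, in which 2.65% of all genes were called higher and 1.94% lower. The smallest adjusted p among them was 0.206, for Ndufs5. At an unadjusted p under 0.05, 6 were higher in KPY-Setd2KO (Ndufs5, Ndufs6, Ndufb10, Ndufa5, Ndufa12 and Ndufv1) and 0 lower, while 6.93% of all genes were higher and 6.8% lower at that level. For none of the 37 did the genotypes separate without overlap, which 0.327% of all genes did with KPY-Setd2KO higher and 0.244% with it lower. The count of 6 was 2 without KPY-Ctrl replicate 4 or 5, 3 without KPY-Ctrl replicate 3 or KPY-Setd2KO replicate 4 or 7, and 10 without KPY-Setd2KO replicate 5. The median of 0.23 was 0.12 without KPY-Setd2KO replicate 7, and it was 0.091 when counts were scaled by library size only, a scaling that moved the median of all genes to -0.11. In limma voom with sample quality weights, added after seeing the data, the median was 0.48 and 24 of the 37 were called, as were 8293 of all genes (49.3%). The largest weights in that fit fell on KPY-Ctrl tumors of low leukocyte score and KPY-Setd2KO tumors of high score, so genotype and score are confounded in it.

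**Figure D1:**
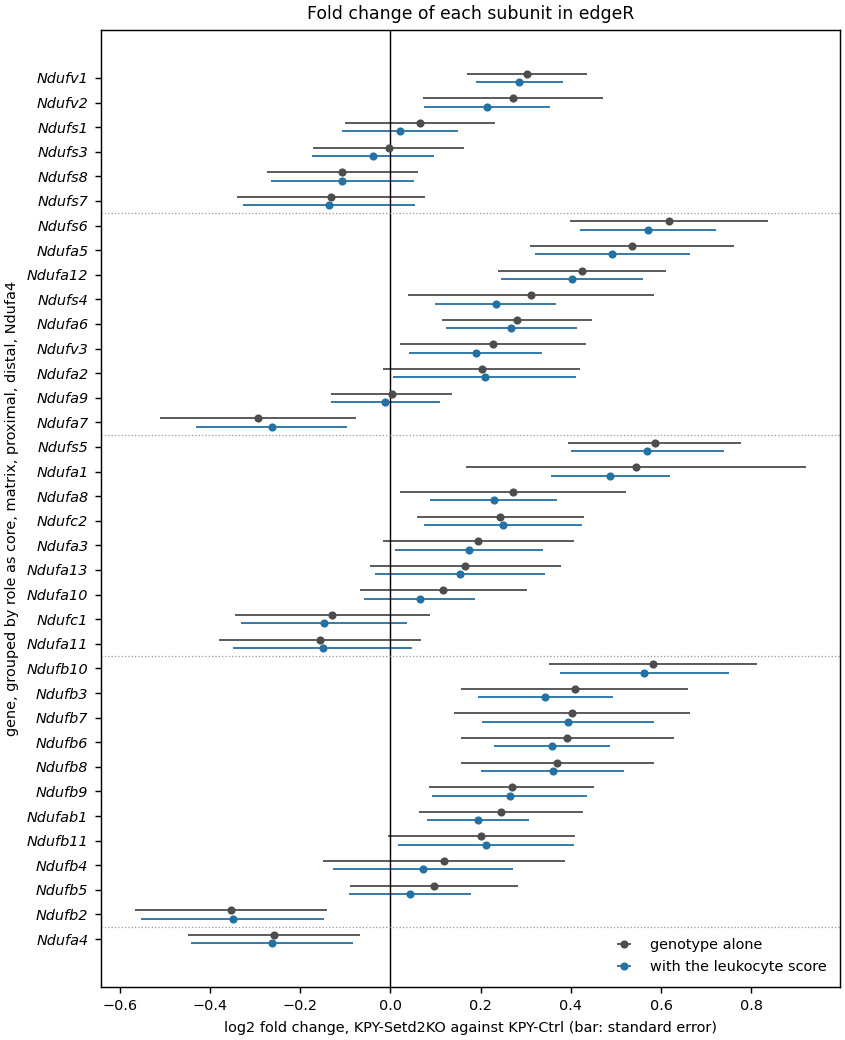
Log2 fold change of 36 tested genes (x axis, KPY-Setd2KO against KPY-Ctrl) with the standard error as a bar, from edgeR with genotype alone (grey) and with the leukocyte score added (blue), with genes (y axis) grouped by role. Points run from -0.35 for Ndufb2 to 0.62 for Ndufs6 with genotype alone, and 28 of 36 lie right of 0.

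The 7 nuclear core subunits carry the flavin and the iron-sulfur clusters of the matrix arm or shape the ubiquinone site, and they had the smallest changes as a group, with a median log2 fold change of 0.063 and 4 of 7 over 0. Ndufv1, which binds NADH and the flavin, ranged from 66.6 to 106 CPM in KPY-Ctrl (median 78.8) and from 87.0 to 113 CPM in KPY-Setd2KO (median 103), with a log2 fold change of 0.30 (standard error 0.13, adjusted p = 0.333, edgeR). All 8 KPY-Setd2KO tumors lay above the KPY-Ctrl median for this gene, and 3 lay above every KPY-Ctrl tumor. Its iron-sulfur partner Ndufv2 ranged from 62.7 to 114 CPM (median 100.4) and from 68.1 to 141 CPM (median 123) respectively, with a log2 fold change of 0.27 (standard error 0.20, adjusted p = 0.605, edgeR). Ndufs1, the large subunit with several of the iron-sulfur clusters, ranged from 65.9 to 83.4 CPM in KPY-Ctrl (median 74.8) and from 54.8 to 104 CPM in KPY-Setd2KO (median 75.7), with a log2 fold change of 0.066 (standard error 0.17, adjusted p = 0.909). For Ndufs1, 3 KPY-Setd2KO tumors lay above every KPY-Ctrl tumor and 3 below every one.

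Ndufs7 lies at the ubiquinone pocket and holds the last cluster of the chain. It ranged from 48.9 to 92.4 CPM in KPY-Ctrl (median 59.96) and from 36.6 to 89.9 CPM in KPY-Setd2KO (median 58.6), with a log2 fold change of -0.13 (standard error 0.21, adjusted p = 0.852, edgeR). Ndufs8, which carries further iron-sulfur clusters next to this site, ranged from 44.1 to 79.5 CPM (median 52.6) and from 38.7 to 72.5 CPM (median 48.0), with a log2 fold change of -0.11 (standard error 0.17, adjusted p = 0.852). Ndufs3, a structural core subunit of the matrix arm, ranged from 40.1 to 66.2 CPM (median 56.0) and from 39.5 to 72.8 CPM (median 57.0), with a log2 fold change of -0.0040 (standard error 0.17, adjusted p = 0.996). The ranges of the genotypes overlapped for each of these 3 subunits, and 1 KPY-Setd2KO tumor lay below every KPY-Ctrl tumor in each.

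Among the 9 accessory subunits of the matrix arm, 8 had a log2 fold change over 0, with a median of 0.28. Ndufs6, a zinc-binding subunit at the junction of the NADH and ubiquinone parts, had the largest change of all the subunits. In KPY-Ctrl replicates 1 to 6 it was at 47.9, 46.5, 34.7, 32.7, 38.7 and 65.4 CPM. In KPY-Setd2KO replicates 1 to 8 it was at 75.4, 72.1, 77.4, 81.3, 34.7, 47.3, 77.8 and 77.7 CPM. Thus 6 of 8 KPY-Setd2KO tumors lay above every KPY-Ctrl tumor and replicates 5 and 6 lay within their range (log2 fold change 0.62, standard error 0.22, adjusted p = 0.237 in edgeR's quasi-likelihood test). Ndufs4, which sits near Ndufs6 and whose loss causes a Leigh-like disease in mice, ranged from 24.5 to 53.9 CPM in KPY-Ctrl (median 35.7) and from 20.4 to 63.8 CPM in KPY-Setd2KO (median 51.1), with a log2 fold change of 0.31. Ndufa12, a further subunit of this junction, ranged from 46.4 to 85.1 CPM (median 61.3) and from 55.0 to 111 CPM (median 82.4), with a log2 fold change of 0.42.

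Ndufa5, a small subunit of the ubiquinone module, ranged from 37.8 to 86.6 CPM in KPY-Ctrl (median 54.3) and from 46.5 to 108 CPM in KPY-Setd2KO (median 83.0), with a log2 fold change of 0.54. Ndufa6, a LYR-motif protein that docks a mitochondrial acyl carrier protein, ranged from 59.8 to 103 CPM (median 91.6) and from 72.8 to 128 CPM (median 105), with a log2 fold change of 0.28. For Ndufa5 and Ndufa6 alike, 7 of 8 KPY-Setd2KO tumors lay above the KPY-Ctrl median and 4 above every KPY-Ctrl tumor. Ndufa2, with a thioredoxin-like fold, ranged from 46.4 to 94.5 CPM (median 57.4) and from 49.2 to 116 CPM (median 70.4), with a log2 fold change of 0.20. Ndufv3, on the NADH-oxidizing tip, ranged from 37.6 to 79.8 CPM (median 63.4) and from 43.3 to 82.8 CPM (median 76.4), with a log2 fold change of 0.23. Ndufa9, a nucleotide-binding subunit at the base of the arm, and Ndufa7 stood apart from these. Ndufa9 ranged from 73.5 to 99.6 CPM (median 88.3) and from 69.9 to 111 CPM (median 88.0), with a log2 fold change of 0.0036. Ndufa7 ranged from 48.5 to 106 CPM (median 66.8) and from 39.3 to 88.6 CPM (median 54.4), with a log2 fold change of -0.29, and 3 of its KPY-Setd2KO tumors lay below every KPY-Ctrl tumor.

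The 9 accessory subunits of the proximal membrane arm, next to the matrix arm, had a median log2 fold change of 0.20 with 7 of 9 over 0. Ndufs5, a disulfide-bonded subunit on the intermembrane side, had the smallest p of all the subunits. In KPY-Ctrl replicates 1 to 6 it was at 24.3, 26.5, 21.4, 19.5, 20.1 and 28.1 CPM, and in KPY-Setd2KO replicates 1 to 8 at 27.2, 39.7, 40.5, 33.4, 24.0, 24.8, 53.9 and 36.4 CPM. All 8 KPY-Setd2KO tumors lay above the KPY-Ctrl median and 5 above every KPY-Ctrl tumor (log2 fold change 0.59, standard error 0.19, adjusted p = 0.206 in edgeR's quasi-likelihood test). Ndufa1, a small membrane-anchored subunit encoded on the X chromosome, ranged from 21.2 to 65.9 CPM in KPY-Ctrl (median 40.2) and from 22.1 to 90.8 CPM in KPY-Setd2KO (median 68.7), with a log2 fold change of 0.54. Its highest tumor was 3.10 times its lowest within KPY-Ctrl and 4.11 times within KPY-Setd2KO, the widest spread of any tested subunit.

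Ndufa8, a second disulfide-bonded subunit of the intermembrane side, ranged from 33.5 to 81.2 CPM in KPY-Ctrl (median 54.6) and from 39.2 to 91.6 CPM in KPY-Setd2KO (median 73.0), with a log2 fold change of 0.27. Ndufa3 ranged from 36.9 to 67.3 CPM (median 46.6) and from 31.1 to 82.8 CPM (median 56.1), with a log2 fold change of 0.20. Ndufa13, also known as GRIM-19, ranged from 75.8 to 155 CPM (median 101) and from 73.9 to 165 CPM (median 119), with a log2 fold change of 0.17. In each of these 3 genes 1 KPY-Setd2KO tumor lay above every KPY-Ctrl tumor. Ndufa10, a nucleoside kinase-like subunit on the matrix side, ranged from 87.9 to 127 CPM (median 107) and from 72.8 to 145 CPM (median 123), with a log2 fold change of 0.12. Ndufc2, a membrane subunit bound to the second mitochondrially encoded core protein, ranged from 75.7 to 105 CPM (median 93.6) and from 78.8 to 181 CPM (median 105), with a log2 fold change of 0.24. Its partner Ndufc1 and the membrane subunit Ndufa11 had negative values. Ndufc1 ranged from 15.7 to 36.9 CPM (median 27.5) and from 15.2 to 32.9 CPM (median 23.7), with a log2 fold change of -0.13. Ndufa11 ranged from 28.6 to 66.7 CPM (median 38.3) and from 25.4 to 58.9 CPM (median 37), with a log2 fold change of -0.16, and no KPY-Setd2KO tumor exceeded all KPY-Ctrl tumors for either gene.

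The 11 accessory subunits of the distal membrane arm, which surround the outer proton-pumping core proteins, had a median log2 fold change of 0.27 with 10 of 11 over 0. Ndufb10 ranged from 55.4 to 127 CPM in KPY-Ctrl (median 82.0) and from 74.2 to 179 CPM in KPY-Setd2KO (median 127), with a log2 fold change of 0.58 (standard error 0.23, adjusted p = 0.280, edgeR), the smallest p and the largest change of this group. It is a disulfide-bonded subunit of the intermembrane side, as is Ndufb7, which ranged from 41.9 to 103 CPM (median 57.8) and from 45.8 to 118 CPM (median 86.8), with a log2 fold change of 0.40. For both, 7 of 8 KPY-Setd2KO tumors lay above the KPY-Ctrl median. Ndufb8, whose protein is a common marker of assembled complex I on blots, ranged from 62.4 to 136 CPM (median 83.8) and from 71.9 to 153 CPM (median 122), with a log2 fold change of 0.37. Ndufb3 ranged from 25.4 to 51.5 CPM (median 33.9) and from 22.9 to 62.6 CPM (median 55.4), with a log2 fold change of 0.41. Ndufb6 ranged from 19.6 to 47.2 CPM (median 29.1) and from 22.9 to 47.9 CPM (median 43.8), with a log2 fold change of 0.39. Ndufb3 was above every KPY-Ctrl tumor in 5 KPY-Setd2KO tumors, and Ndufb6 in 2.

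Ndufb9, a LYR-motif protein, and Ndufab1, the acyl carrier protein it docks, are partners in the distal arm. Ndufb9 ranged from 58.3 to 105 CPM in KPY-Ctrl (median 76.7) and from 69.1 to 134 CPM in KPY-Setd2KO (median 88.8), with a log2 fold change of 0.27. Ndufab1 ranged from 36.2 to 59.4 CPM (median 45.9) and from 35.5 to 78.6 CPM (median 58.1), with a log2 fold change of 0.24. The remaining subunits of the group were closer to 0, apart from Ndufb2. Ndufb11, a subunit encoded on the X chromosome, ranged from 72.7 to 116 CPM (median 82.4) and from 70.7 to 179 CPM (median 93.0), with a log2 fold change of 0.20. Ndufb4 ranged from 8.73 to 20.9 CPM (median 10.9) and from 6.35 to 22.2 CPM (median 13.9), with a log2 fold change of 0.12. Ndufb5 ranged from 53.7 to 93.1 CPM (median 74.5) and from 49.7 to 99.6 CPM (median 78.3), with a log2 fold change of 0.097.

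Ndufb2 had the most negative log2 fold change of the 37 genes. In KPY-Ctrl replicates 1 to 6 it was at 21.7, 23.5, 31.2, 23.7, 28.4 and 44.1 CPM, and in KPY-Setd2KO replicates 1 to 8 at 24.4, 17.7, 23.3, 13.0, 19.0, 22.4, 27.8 and 32.3 CPM. In 3 KPY-Setd2KO tumors it lay below every KPY-Ctrl tumor and in 2 above the KPY-Ctrl median (log2 fold change -0.35, standard error 0.21, adjusted p = 0.502 in edgeR's quasi-likelihood test). Ndufa4, the subunit now assigned to complex IV, was second in this direction by p. It was at 145, 90.8, 138, 109.5, 141 and 166 CPM in KPY-Ctrl replicates 1 to 6 and at 139.7, 95.1, 80.5, 115, 80.0, 92.1, 147 and 134 CPM in KPY-Setd2KO replicates 1 to 8. Of the KPY-Setd2KO tumors, 1 lay above the KPY-Ctrl median and 2 below every KPY-Ctrl tumor (log2 fold change -0.26, standard error 0.19, adjusted p = 0.609). Its paralog Ndufa4l2, a hypoxia-inducible gene, had from 0 to 30 counts per tumor and was not tested. It was highest in KPY-Setd2KO replicate 8, at 1.11 CPM, and at most 0.243 CPM in KPY-Ctrl.

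**Figure D2:**
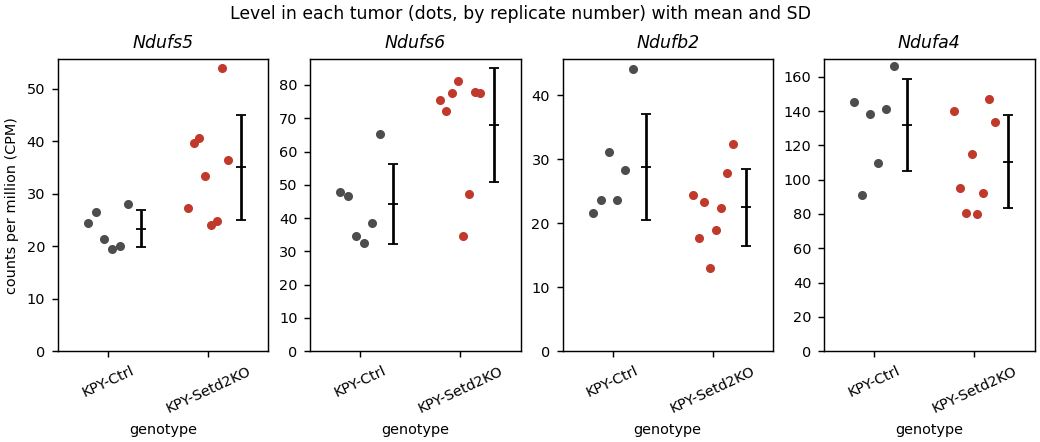
CPM (y axis, from 0) in each tumor for Ndufs5 and Ndufs6, the genes of smallest p with higher values in KPY-Setd2KO, and for Ndufb2 and Ndufa4, those with lower values. Dots are the 6 KPY-Ctrl and 8 KPY-Setd2KO tumors in order of replicate number and bars the mean and SD. Ndufs6 exceeded every KPY-Ctrl tumor in 6 of 8 KPY-Setd2KO tumors, whereas the ranges of Ndufa4 overlapped over most of their length.

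The level of the subunits as a whole differed more between tumors of 1 genotype than between the genotypes. The median log2 CPM of the 37 genes was 5.54 to 6.41 in KPY-Ctrl (5.97 ± 0.31, SD, n = 6) and 5.54 to 6.44 in KPY-Setd2KO (6.19 ± 0.31, SD, n = 8). Within KPY-Ctrl, replicate 6 held the highest value of 25 of the 37 genes and replicate 4 the lowest of 24. Within KPY-Setd2KO, replicate 5 held the lowest value of 30 and replicate 7 the highest of 15. These genes share library and scaling in each tumor, so their counts are not independent of each other.

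**Figure D3:**
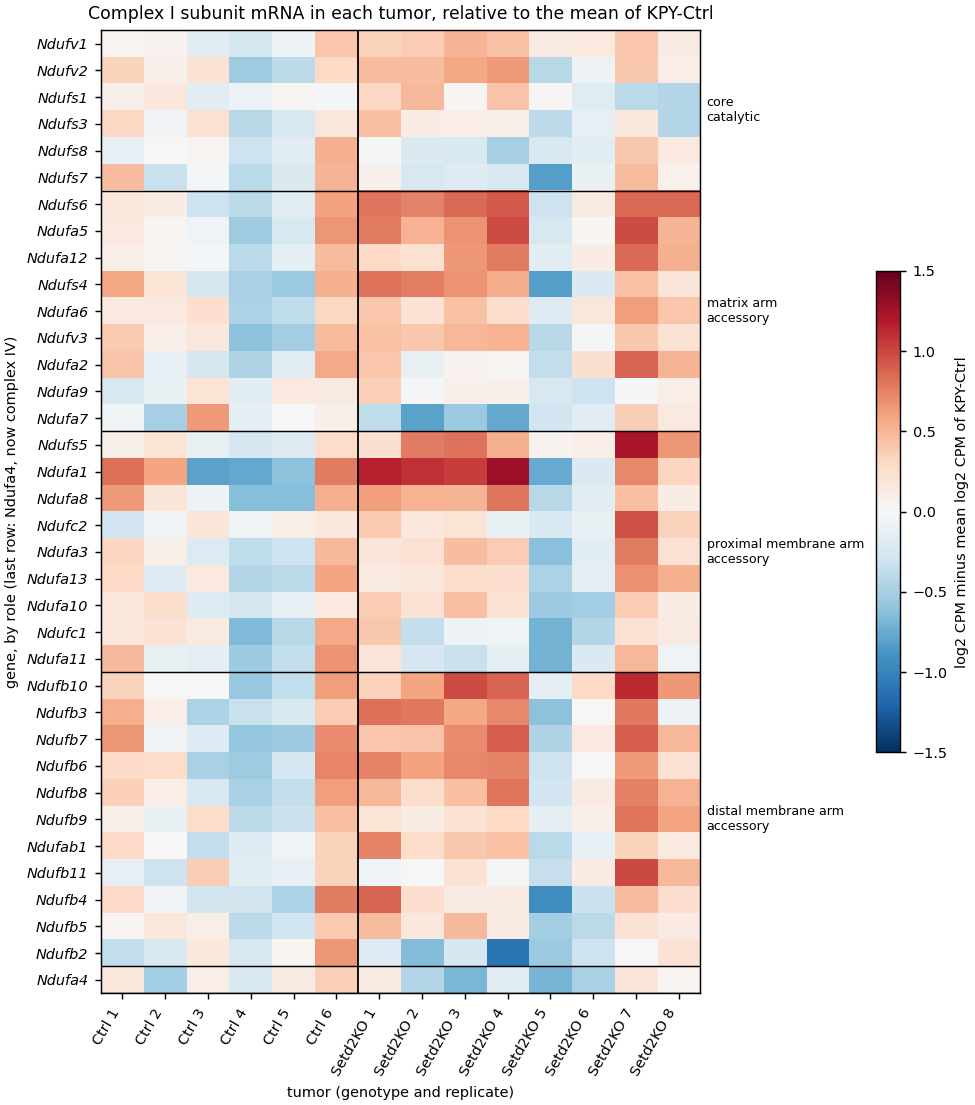
Log2 CPM of 36 tested genes (rows, grouped by role) in each tumor (columns), minus its mean in KPY-Ctrl, with red above and blue below that mean on a scale from -1.5 to 1.5. Columns of mostly 1 color include KPY-Ctrl replicates 4 and 6 and KPY-Setd2KO replicates 1, 5 and 7, and Ndufa7 and Ndufb2 go against the column in several tumors.

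The level of the subunits moved with the leukocyte score in part. In an edgeR fit with genotype and score together, 19 of the 37 genes rose with the score and 1 fell at an adjusted p under 0.05, where 28.5% of all genes rose and 28.5% fell. Ndufa1 had the steepest slope, at 0.30 log2 units per unit of score (standard error 0.030, adjusted p = 1.22e-06, edgeR), followed by Ndufs4 at 0.20 (standard error 0.031, adjusted p = 7.15e-05) and Ndufa8 at 0.17 (standard error 0.032, adjusted p = 0.000396). Ndufa7 was the gene that fell, at -0.11 (standard error 0.038, adjusted p = 0.0226). More leukocyte RNA in a sample and a different level within tumor cells cannot be told apart in such bulk samples. KPY-Setd2KO replicate 7 had a high subunit median of 6.40 at a score of 5.78, whereas KPY-Ctrl replicate 2 had a median of 5.90 at a score of 8.90.

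**Figure D4:**
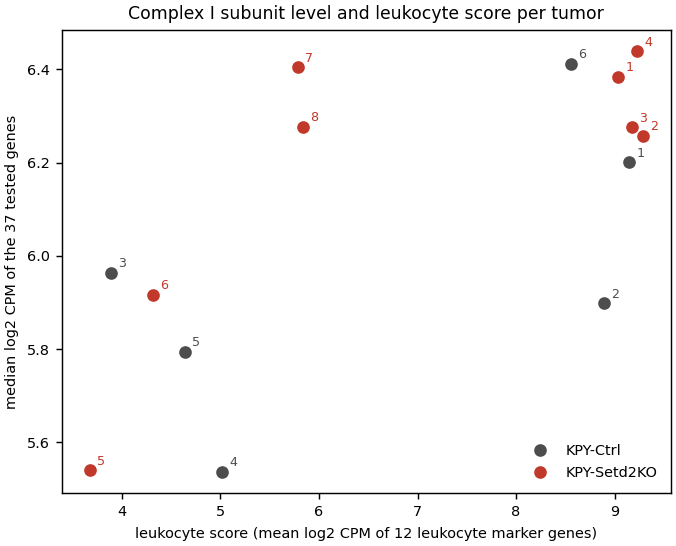
Median log2 CPM of the 37 tested genes (y axis) against the leukocyte score (x axis, mean log2 CPM of 12 leukocyte markers) in each tumor, numbered by replicate. Most tumors with high scores had subunit medians above 6.2, whereas KPY-Setd2KO replicates 7 and 8 reached 6.40 and 6.28 at scores of 5.78 and 5.84.

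With the leukocyte score as a covariate in edgeR, 2 subunits were called higher in KPY-Setd2KO and 0 lower, where 3.1% of all genes were called higher and 2.3% lower. Ndufs6 had a log2 fold change of 0.57 (standard error 0.15, adjusted p = 0.0417, edgeR) and Ndufa1 of 0.49 (standard error 0.13, adjusted p = 0.0450) in that fit. For so few genes, 2 of 37 is close to the share of all genes. The same covariate in DESeq2 called 6 higher and 0 lower, where 7.75% of all genes were called higher and 6.53% lower. The 6 were Ndufs6, Ndufa1, Ndufs5, Ndufv1, Ndufb10 and Ndufa5, with adjusted p from 0.00629 to 0.0458 (DESeq2). The median log2 fold change of the 37 was 0.21 with the score, beside 0.23 without it, while the standard error of Ndufa1 went from 0.38 to 0.13.

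Some subunits have copies elsewhere in the genome among which the authors' quantification had to divide reads. In the annotation, 17.2% of the 75-base stretches of Ndufb4 transcripts also occur in Ndufb4c, a processed pseudogene that held 21434 counts over all tumors beside 6524 for Ndufb4 itself. For Ndufs5 the figure was 15.7%, shared with BC002163, which held 16776 counts beside 14280. For Ndufa12 it was 14.6%, shared with Gm15920, with 5514 counts beside 35998. Levels of these genes are therefore uncertain. With the counts of processed copies added, Ndufs5 had a log2 fold change of 0.61 (standard error 0.22) and Ndufa12 of 0.42 (standard error 0.20), while Ndufb4 went from 0.12 to -0.026 (standard error 0.24).

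The complex I subunits are built into one complex, yet their mRNA levels differed widely. Per kilobase of the longest coding transcript, their mean level in KPY-Ctrl ran from 144 CPM per kb for Ndufa6 to 6.58 CPM per kb for Ndufb2. Ndufa4, now assigned to complex IV, stood above them at 216 CPM per kb. The median over the 37 genes, which include Ndufa4, was 58.5 CPM per kb. Next to Ndufa4 stood Ndufa6 at 144 ± 31.1, Ndufc2 at 136 ± 16.2 and Ndufa7 at 133 ± 36.7 CPM per kb (SD, n = 6), which differed by less than their spread. The low end held Ndufc1 at 20.7 ± 6.12, Ndufab1 at 13.7 ± 2.62 and Ndufb4 at 13.1 ± 4.66 CPM per kb. For Ndufb2 and Ndufab1 the longest annotated transcript has 4371 and 3479 bases, which lowers a level per length. With the annotation's principal transcript in place of the longest, 3 of 37 lengths changed, and Ndufb8 moved from place 29 to place 4 of the order.

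**Figure D5:**
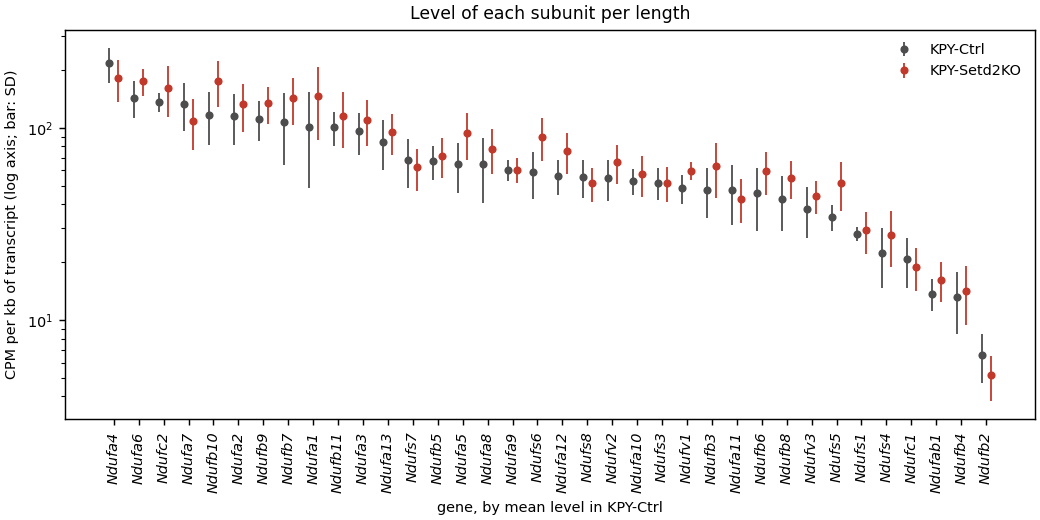
Mean CPM per kb of the longest coding transcript (y axis, log scale) of 36 tested genes in order of their KPY-Ctrl mean (x axis), with the SD over 6 KPY-Ctrl (grey) and 8 KPY-Setd2KO (red) tumors. Levels fall from 216 CPM per kb for Ndufa4 to 6.58 CPM per kb for Ndufb2 in KPY-Ctrl.

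Because the subunits varied together between tumors, the promoters of 33 of the 37 genes with an entry in the RefSeq table of GRCm38.p6 (250 bases before to 50 after the start) were searched on both strands for letters bound by regulators known for respiratory chain genes. The YY1 letters AAGATGGCG occurred in 5 of 33 (15.2%), against 1.64% of 27025 genes with a promoter. The nuclear respiratory factor 1 letters GCGCATGC occurred in 3 (9.09%, against 3.05%), the estrogen-related receptor half-site AAGGTCA in 3 (9.09%, against 5.38%) and the ETS letters CCGGAAGT in 1 (3.03%, against 4.31%). None of these letter strings contains another. The YY1 letters lay 23 to 36 bases after the RefSeq start on the coding strand in each of the 5 genes, among them Ndufs6, the subunit of largest change. The 30 bases around each of these sites are shown because they hold the string with the highest share among the subunits, with the YY1 letters in capitals:
Ndufs6 (chr13:73328433-73328462, minus strand): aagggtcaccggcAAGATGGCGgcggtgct
Ndufs4 (chr13:114388045-114388074, minus strand): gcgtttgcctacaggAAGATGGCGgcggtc
Ndufa9 (chr6:126849096-126849125, minus strand): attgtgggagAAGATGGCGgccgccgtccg
Ndufs7 (chr10:80249463-80249492, plus strand): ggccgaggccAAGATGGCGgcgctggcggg
Ndufc1 (chr3:51408914-51408943, minus strand): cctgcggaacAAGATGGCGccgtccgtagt
The log2 fold changes of these 5 genes were 0.62, 0.31, 0.0036, -0.13 and -0.13 in the order shown. None of the 5 was called in edgeR, so no difference in direction between them was established.
The receptor half-site was found upstream of both Ndufs5 and Ndufb2, which had log2 fold changes of 0.59 and -0.35, neither called in edgeR. These sites are shown because the estimates differ in sign, with the half-site in capitals:
Ndufs5 (chr4:123718396-123718425, minus strand): tttctcgagtgTGACCTTgctcaagtagca
Ndufb2 (chr6:39592373-39592402, plus strand): ggagcagcagtAAGGTCAgccaagagcacc
A match of letters does not show that a factor binds there. The YY1 letters also hold ATG, and whether they overlap the start of the coding sequence was not examined.

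None of the other genes of complex I or of complexes II and III was called in edgeR's quasi-likelihood test. That test called 0% of all genes, and 52.7% of all genes had a log2 fold change over 0. The 7 mitochondrially encoded core subunits all had log2 fold changes over 0, with a median of 0.32, from 0.23 to 0.86. The smallest p among them was that of mt-Nd2, a proton-pumping core protein of the membrane arm, which ranged from 1556 to 3252 CPM in KPY-Ctrl and from 1815 to 7879 CPM in KPY-Setd2KO (log2 fold change 0.86, standard error 0.36, adjusted p = 0.306, edgeR). Of 16 assembly factors, 9 were over 0, with a median of 0.028. Ndufaf2, an assembly chaperone that holds the place of Ndufa12 in the unfinished complex, ranged from 8.20 to 16.98 CPM and from 13.9 to 26.6 CPM (log2 fold change 0.77, standard error 0.20, adjusted p = 0.133, edgeR). In complex II (succinate dehydrogenase), 2 of 4 subunits were over 0, with a median of 0.071, and Sdhb had the smallest p (log2 fold change 0.27, standard error 0.26, adjusted p = 0.719, edgeR). In complex III (the cytochrome bc1 complex), 6 of 9 were over 0, with a median of 0.13, and Uqcrb had the smallest p (log2 fold change 0.66, standard error 0.38, adjusted p = 0.478, edgeR).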

How the data were processed

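RNA from 6 KPY-Ctrl and 8 KPY-Setd2KO tumors was sequenced as single-end reads. The authors quantified transcripts with Salmon 0.8.2 against GRCm38.p5 and deposited an estimated count for each Ensembl gene, rounded to whole numbers and not normalized. Columns were matched to samples by their titles. Of 52550 identifiers, 52403 were matched to GENCODE release M21. Counts were filtered with edgeR's default rule and compared in R 4.3.3 by edgeR 4.0.16 (scaling by TMM, robust quasi-likelihood test, Benjamini-Hochberg adjustment over all genes tested, call at an adjusted p under 0.05). DESeq2 1.42.0 and limma 3.58.1 were alternatives. Log2 CPM used a prior count of 2. The edgeR fit with genotype alone was run on counts simulated independently for each gene. That check does not cover the fits with the leukocyte score or genes that vary together. Every gene of the rule is named except 1, which is counted in the totals but not reported here. Standard errors and adjusted p are given for the core subunits, for the subunit of smallest p and largest change in each other role, and for the gene of smallest p in the other lists. The genes, lists and tests were chosen with earlier results of these data known.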

Additional observations from a re-analysis of the deposited data

How the results depend on the processing

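The number of complex I subunits called, 0, was also 0 with DESeq2, other size factors, other filters, limma voom and the counts of copies added, and in the 14 fits that left out 1 tumor each (from 0 to 0). It was 2 with the leukocyte score in edgeR, 6 with the score in DESeq2, and 24 in limma voom with sample quality weights. That last fit, chosen after seeing the data, called 8293 of 16836 genes and weighted tumors from 0.360 to 4.76, and it gave a median log2 fold change of 0.48. The median ranged from 0.12 to 0.32 over the fits that left out 1 tumor. With the replicate number as a block the median was 0.13, 0 subunits were higher and 2 lower at an unadjusted p under 0.05, and Ndufa9, Ndufb11 and Ndufs3 changed sign (-0.012, -0.019 and 0.036). KPY-Setd2KO replicates 7 and 8 have no KPY-Ctrl tumor of their number, so they do not inform the genotype difference in that block fit. Without KPY-Setd2KO replicate 7 alone the median was 0.12. The share of all genes at that unadjusted p in the block fit is not given here. Deviations of same-numbered tumors correlated from -0.66 to 0.66. The study counts the mice of each genotype separately, so same-numbered tumors do not share a mouse. Whether the numbers pair tumors in another way cannot be told from these correlations, because the genes vary together.

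The subunits that changed sign had log2 fold changes between -0.16 and 0.20. Ndufs3 was at 0.00091 with DESeq2 and 0.0012 with RLE size factors. Ndufa9 was at -0.046 without a filter, -0.015 where each tumor had to hold 10 counts or more, and -0.011 and -0.0069 with the leukocyte score in edgeR and DESeq2. Ndufb4 was at -0.026 with the counts of copies added, whether of all genes or of processed pseudogenes alone. With library size only, Ndufa10, Ndufa9, Ndufb4, Ndufb5 and Ndufs1 were at -0.039, -0.16, -0.023, -0.055 and -0.097. With quality weights, Ndufa11, Ndufc1, Ndufs3 and Ndufs7 were at 0.18, 0.30, 0.30 and 0.090. Leaving out 1 tumor gave both signs for Ndufa9 (-0.053 to 0.039), Ndufs3 (-0.080 to 0.061), Ndufs8 (-0.19 to 0.019), Ndufs1 (-0.0038 to 0.12), Ndufa11 (-0.26 to 0.0016) and Ndufb4 (-0.012 to 0.32). The cause was not tested.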

Other observations

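Ndufb1-ps, which the annotation lists as a noncoding transcript, lies outside the gene rule but held 694 to 3203 counts per tumor. It ranged from 26.1 to 76.5 CPM in KPY-Ctrl and from 15.2 to 72.2 CPM in KPY-Setd2KO (log2 fold change -0.23, standard error 0.36, adjusted p = 0.845 in edgeR's quasi-likelihood test). BC002163, the copy of Ndufs5, ranged from 14.5 to 43.7 CPM and from 23.9 to 65.0 CPM, with a log2 fold change of 0.64 (standard error 0.30, adjusted p = 0.365). None of 74 sets of subunit values, 1 for each gene and genotype, held a tumor far from the others by Dixon's ratio, which chance alone would flag in about 1 set in 20.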
